A study of Capra hircus with 4 samples.

Results

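A stretch of goat chromosome 13 carried a cluster of long non-coding RNAs (lncRNAs) that the authors of the study listed as lower in one set of endometrium libraries than in the other. The region described is chromosome 13 from 22000000 to 25000000, in the coordinates of the deposited table. Which goat assembly these refer to is not stated in its header or in the labels. All 253 lncRNA transcripts whose locus lay wholly inside it were taken, of 226416 transcripts in the whole table and 6347 on chromosome 13. The interval was chosen by the density of lncRNAs that the authors had called lower, so those calls and their log2 changes are given as a description, without a test. Of the 253 transcripts, 17 were listed lower, 1 was listed higher and 235 were in neither list.

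The tissue was endometrium, the inner lining of the uterus, of Xinong Saanen dairy goats that had borne young before, were 24 months old, had been synchronised in estrus and had mated naturally. Pre-receptive endometrium was taken at gestational day 5 (2 libraries) and receptive endometrium at gestational day 15 (2 libraries). The sample information gives 10 goats for each stage, and does not say whether a library held RNA of 1 goat or of several. RNA was depleted of ribosomal RNA and sequenced from both ends in strand-specific libraries. The authors' comparison sets a group of libraries named T against a group named C. Neither the sample labels nor the table headers tie either letter to a day, so each direction below is T against C. The table also has columns with values of 4 single libraries, whose names carry the letter T or C but match no sample label, and these were not used. No spread between libraries is therefore given, and for a transcript that is not in the authors' list no level or change is given. Its absence from the list does not show that it did not change. No protein-coding expression table was used, so the endometrial identity of the tissue could not be checked against marker genes.

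LncRNAs are transcripts longer than short RNAs such as microRNAs, without a recognisable protein-coding frame. Some act on the chromatin or the transcription of the genes beside them, and some only mark a stretch of DNA that is being transcribed. The endometrium is remodelled under ovarian steroids before a conceptus attaches, and the transcription of many genes in its epithelium and stroma changes during that time. An assembly of sequenced RNA gives each lncRNA a class code by its place relative to annotated genes. Code u is intergenic, and code x overlaps an exon of a gene on the opposite strand. Of the 253 transcripts, 248 (98.0%) were of class u and 5 of class x, and the share of class u among all transcripts was 98.3%.

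Of the 253 transcripts, the authors' deposited table called 18 (7.11%), against 0.295% of all transcripts. Lower calls made up 6.72% of the 253 transcripts, against 0.118% of all transcripts. There was 1 higher call, and higher calls made up 0.177% of all transcripts. As the interval was chosen for its lower calls, nothing is read from these shares. All calls of the table had p of at most 0.0499 without adjustment. Across the 18 calls the p in the authors' deposited table ran from 0.0041 to 0.0483 and the q from 0.44 to 0.894. None of the 18 had q under 0.05, whereas 12 of the 668 calls of the whole table did. No transcript of the interval is therefore shown to differ after adjustment by the authors' own test.

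The calls were unevenly spread along the interval. Of the 17 lower calls, 15 lay between 23369745 and 23759623, a stretch of 389.9 kb. Chromosome 13 had no call between the end of TCONS_00084254 at 10123432 and the start of TCONS_00085153 at 22151867. After the stretch the next call on the chromosome was TCONS_00094713 at 46043331, 22284 kb away. The 3 Mb on the left of the interval held 164 transcripts and the 3 Mb on its right 241, with 0 calls in either. At the 0.295% share of calls among all transcripts, 0 of 164 and 0 of 241 are not unusual, and nothing is read from them. Among all 1-Mb bins of the genome, 2524 held lncRNA transcripts, with a median of 88 each, and 153 had at least 1 lower call. The bin from 23 to 24 Mb of chromosome 13 had 15 lower calls among 119 transcripts, and no other bin had as many. The place of the bin borders enters that order, since a run of 13 lower calls on chromosome 29 (9539384 to 10091965) lies across one. A further run of 7 lower calls followed there at 10259844 to 10446226. Both runs lie within 1 Mb, so a bin with other borders could hold more lower calls than the 15 of chromosome 13. The interval was chosen for its lower calls, so nothing is read from its place in that order.

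**Figure D1:**
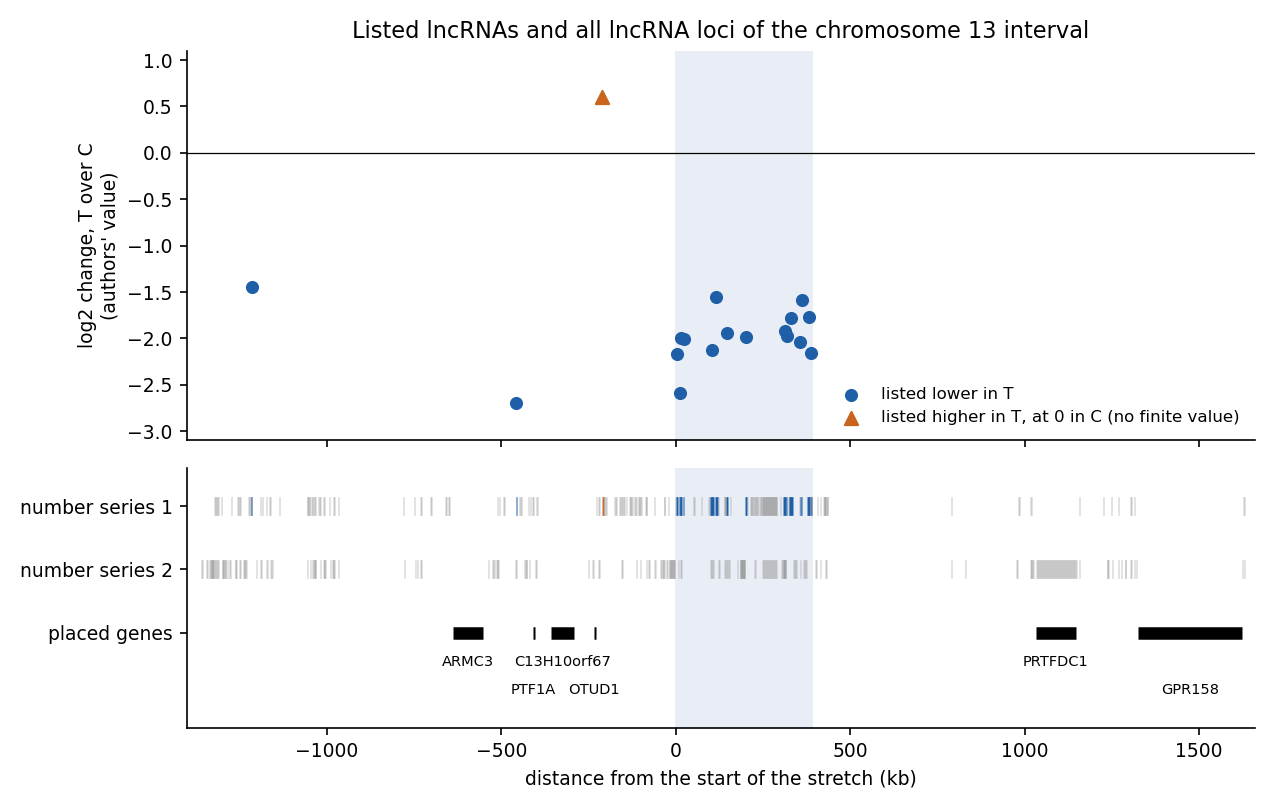
Top: the authors' log2 change (T over C) of each called lncRNA against its distance in kb from the start of the stretch (shaded). The triangle is the call listed at 0 in C, which has no finite value and is drawn at an arbitrary height. Bottom: loci of class u in the first and second number series and genes placed by the deposited tables, with called lncRNAs in blue (lower) or orange (higher). The 15 lower calls of the stretch lie between -2.59 and -1.55, and all calls are in the first series.

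With gaps of at most 100 kb between successive calls, the stretch formed 2 runs. The first held 8 lower calls from 23369745 to 23573292 (203.5 kb) and the second 7 lower calls from 23678546 to 23759623 (81.1 kb). The 105.3 kb between them held 18 transcripts, and none was called. This 0 of 18 is near the 0.295% share of calls among all transcripts, so no unchanged part between the runs is shown. With gaps of at most 200 kb the 2 runs joined. Between the first and the last call of the stretch lay 61 transcripts at 44 distinct loci, of which 15 (24.6%) were called lower and none higher. The share of lower calls was 29.6% of 27 transcripts in the first run and 43.8% of 16 in the second. Among all transcripts it was 0.118%. The stretch and each run begin and end at a call by definition, which raises these shares. They also come from the calls by which the interval was chosen, so nothing is read from them.

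The first run opened with TCONS_00085286 at 23369745 to 23376288, which was 4.50-fold lower in T (log2 change -2.17, p = 0.005, q = 0.457 in the authors' deposited table). Next to it, TCONS_00085289 had the largest change of the stretch, 6.03-fold lower (log2 change -2.59), and also its highest p in the authors' deposited table, 0.0483 with q = 0.894. TCONS_00085291 and TCONS_00085292 followed within 5 kb of each other, with log2 changes near the median of the stretch in the authors' deposited table (-1.99 and -2.00). These first 4 calls covered positions up to 23393565 and had gaps of 1831 to 3608 bp between them.

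After a gap of 74248 bp came TCONS_00085304 at 23467814 to 23479379. It had the smallest p of all 18 calls in the authors' deposited table (p = 0.0041, q = 0.44) and was 4.36-fold lower (log2 change -2.12). TCONS_00085306, 3070 bp further on, had the smallest change of the stretch, 2.93-fold lower (log2 change -1.55, p = 0.0424, q = 0.885 in the authors' deposited table). TCONS_00085314 had a log2 change of -1.94 in the authors' deposited table (p = 0.0188). TCONS_00085324 closed the first run at 23573292 with a log2 change of -1.99 in the authors' deposited table (p = 0.03). So the call with the smallest p and the one with the smallest change were neighbours.

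Against 8 calls in 203.5 kb for the first run, the second run held 7 in 81.1 kb. It opened with TCONS_00085362 at 23678546 to 23685454, 3.79-fold lower (log2 change -1.92, p = 0.00925, q = 0.513 in the authors' deposited table). TCONS_00085363 began 93 bp after its end, with a log2 change of -1.98 and p = 0.0151 in the authors' deposited table. TCONS_00085365, which had the widest locus of the 18 calls of the interval (13607 bp), had a log2 change of -1.78 and p = 0.0105 in the authors' deposited table. In order of p, the 5 smallest of the interval belonged to TCONS_00085304, TCONS_00085286, TCONS_00085362, TCONS_00085365 and TCONS_00085291, so both runs held some of them.

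The remaining calls of the second run came as 2 close couples. In the authors' deposited table TCONS_00085369 and TCONS_00085370 were 78 bp apart, and their log2 changes were -2.04 for the first and -1.59 for the other. There TCONS_00085373 and TCONS_00085374 were 131 bp apart, and the authors' deposited table lists log2 changes of -1.77 for the first and -2.16 for the other. TCONS_00085374 ended at 23759623 and closes the stretch. Of the 14 gaps between successive calls of the stretch, 3 were under 200 bp, 8 under 5 kb and 2 over 50 kb, with a median of 3339 bp. Whether neighbouring calls are pieces of 1 longer transcript was not tested, and the 15 calls are not independent measurements. Together their loci covered 90.2 kb, or 23.1% of the stretch.

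The listed change of the 15 calls of the stretch lay between 2.93-fold and 6.03-fold lower. The other transcripts of the stretch have no listed change, and the list ends at p = 0.0499 of the authors' test, so smaller changes may be missing from it. The 15 log2 changes ran from -2.59 to -1.55 in the authors' deposited table, with a median of -1.99 (3.96-fold lower) and an SD of 0.25 among calls. The 237 lower calls of the whole table with both sets above 0 had a median of -1.94 and a middle 50% from -2.59 to -1.66. Within the stretch the middle 50% ran from -2.08 to -1.85. The median was -2.00 in the first run and -1.92 in the second.

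**Figure D2:**
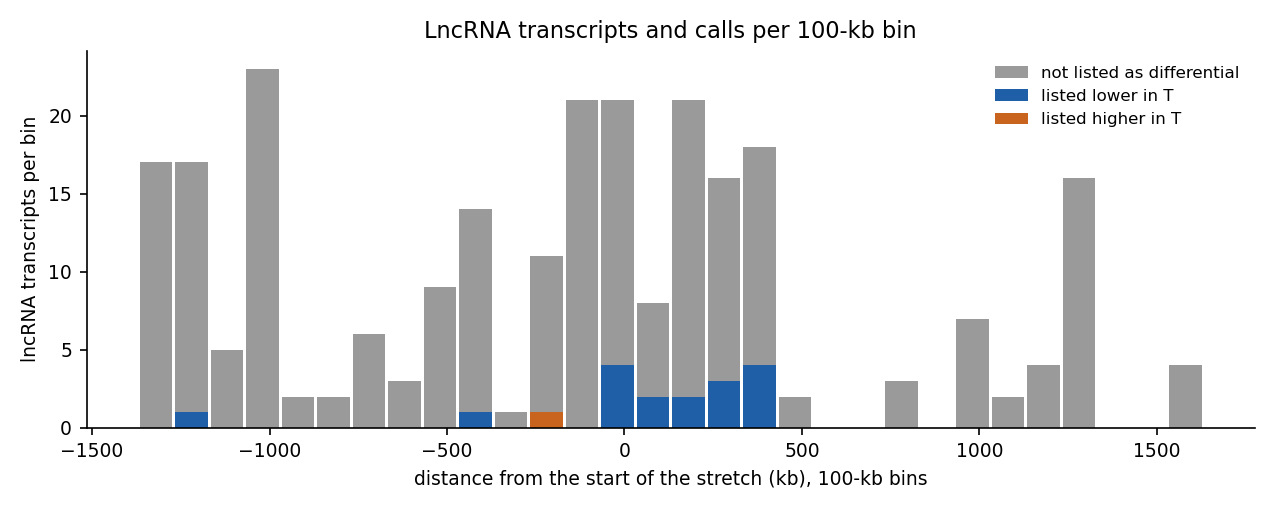
LncRNA transcripts per 100-kb bin against distance in kb from the start of the stretch, stacked as listed lower in T, listed higher in T and not listed. The 5 bins at and after the stretch start hold 2 to 4 lower calls each, while neighbouring bins with 21 and 2 transcripts hold 0. Of all transcripts 0.295% were called, so 0 of 21 and 0 of 2 are near that share.

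The left border is one of the list of calls, and the transcripts ran on across it. The bin from 23200000 to 23299999 held 21 transcripts with 0 calls, and the next bin held 21 transcripts with 4 lower calls. In the 100 kb before the stretch lay 18 transcripts, none called. Of all transcripts 0.295% were called, so 0 of 21 and 0 of 18 are near that share, and no border of expression is shown. TCONS_00085285, at 23367356 to 23369667, ended 0.077 kb before the first call and was not called. The first call thus lies in a row of transcripts that began before it.

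On the right, the listed transcripts themselves thinned out soon after the last call. Behind TCONS_00085374 another 11 transcripts followed within 45.4 kb, with spans of 1396 to 5570 bp. None of them was called, which is near the 0.295% share of all transcripts. TCONS_00092771, the nearest, began 8.12 kb after the last call. After 23805015 no lncRNA transcript was listed for 352.9 kb, up to 24157947. Only lncRNAs were listed, so a part without them can still hold annotated genes, and no end of transcription is shown. From there to 25000000 the interval held only the other 36 of the 47 transcripts behind the stretch. They had 0 calls, again near the 0.295% share. Of the 30 bins of 100 kb in the interval, 5 held no transcript start. Those from 24700000 to 24899999 lie within the locus of GPR158 (24694527 to 24992029).

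All 18 calls of the interval belonged to 1 of 2 sets of transcript numbers. On chromosome 13 the numbers run along the chromosome from its start a first time (3198 transcripts) and then a second time (3143), each with 0 backward steps, and 6 more transcripts follow. The table gives no strand, so neither set was assigned to one, and what the sets stand for was not tested. The interval held 133 transcripts of the first series and 120 of the second. The calls were 18 of 133 in the first and 0 of 120 in the second. In the stretch they were 15 of 40 in the first and 0 of 21 in the second. Over the whole of chromosome 13, 0.782% of the first series and 0.255% of the second were called. The 0 of 120 and 0 of 21 are near the share of the second series, so nothing is read from them. Over the whole table, 55.8% of the lower calls were of the first series of their chromosome. Of 24 runs with at least 3 calls, 22 lay within a single series.

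The same locus could hold a called and an uncalled transcript. A deposited locus can be shared by several transcripts, and the 253 transcripts had 203 distinct loci. Of the 15 calls of the stretch, 6 shared their locus with 8 other transcripts, and none of the 8 was called. This 0 of 8 is near the 0.295% share of calls among all transcripts, so nothing is read from it. For 5 of the 6 the partner was in the second series. TCONS_00085304, the call of smallest p, shared 23467814 to 23479379 with TCONS_00092745. TCONS_00085362 shared its locus with TCONS_00092764, TCONS_00092765 and TCONS_00092766. The exception was TCONS_00085374, whose partner TCONS_00085375 was in the first series. The difference between called and uncalled partners was not tested, because the library columns were not used.

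**Figure D3:**
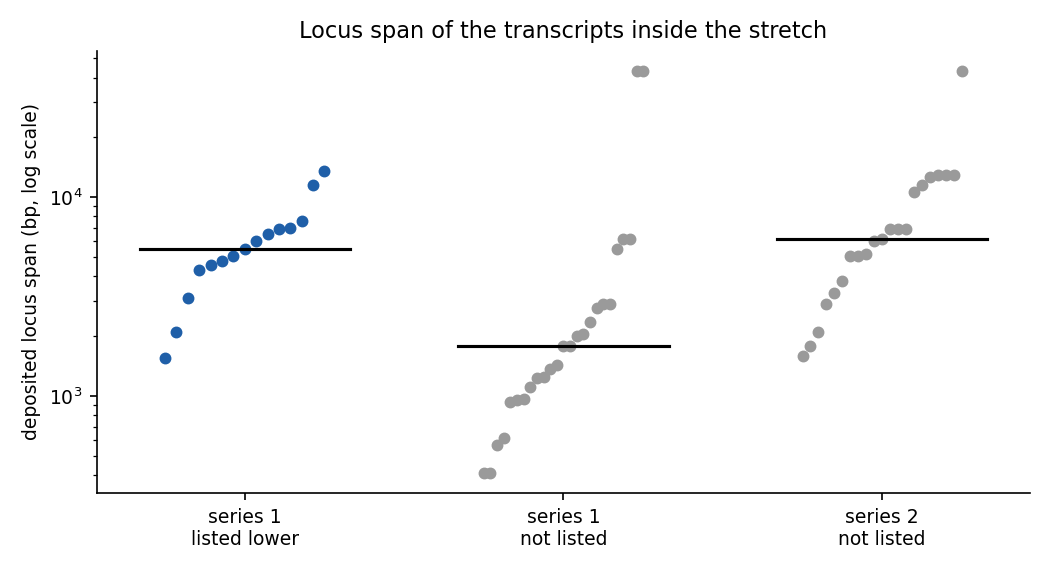
Span of the deposited locus in bp (log scale) of each transcript inside the stretch, by number series and by whether it was listed lower in T, with the median as a bar. The medians are 5505 bp for the 15 calls, 1778 bp for the 25 uncalled transcripts of the first series and 6182 bp for the 21 of the second.

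Calls sat at the wider loci of the first series. The median locus span of the 15 calls was 5505 bp (1560 to 13607), and that of the 25 uncalled transcripts of the first series in the stretch was 1778 bp (409 to 43256). Of the 17 first-series transcripts there with a locus of at least 4000 bp, 12 were called, against 3 of the 23 with a narrower one. With a cut at 1500 bp, 15 of 28 and 0 of 12 were called, and 0 of 12 is near the 0.295% share of all transcripts. The share called among wide and narrow loci of the first series outside the stretch is not given here. The second series had 15 transcripts at loci of at least 4000 bp in the stretch and 0 calls, and 0.255% of that series was called on chromosome 13. The 253 transcripts had a median span of 1902 bp, and all 226416 one of 1425 bp. Lower calls over the whole table also had wide loci, with a median of 4134 bp, against 1266 bp for all 668 calls. The span is that of the locus and not of the spliced transcript, and whether it bears on which transcripts were called was not tested.

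The widest uncalled loci of the stretch lay in the part between the 2 runs. TCONS_00085348 and TCONS_00085352 of the first series and TCONS_00092762 of the second shared a locus of 43256 bp, from 23617007 to 23660262. None was called, and neither was any other of the 18 transcripts between the runs. That is near the 0.295% share of calls among all transcripts, so nothing is read from the empty middle of the stretch. Transcripts were assembled there in both series.

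CPC and CNCI are scores of coding potential that are below 0 for a transcript judged non-coding, and every transcript of the table is below 0. The median CPC score was -1.15 for the 15 calls of the stretch, -1.13 for the 253 transcripts and -1.13 for the whole table. The median CNCI score was -0.0246 for the calls of the stretch, -0.0369 for the 253 transcripts and -0.0328 for the whole table.

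The deposited tables place 6 genes in the interval, either as the locus of an antisense lncRNA or as a predicted target. From left to right these are ARMC3 (an armadillo repeat protein), PTF1A (a basic helix-loop-helix transcription factor needed for the pancreas), C13H10orf67, OTUD1 (a deubiquitinating enzyme), PRTFDC1 (a relative of the purine salvage enzyme HPRT1) and GPR158 (a receptor of the G protein-coupled type). The stretch began 233.5 kb after OTUD1 and ended 642.1 kb before PRTFDC1. RefSeq's genes of assembly ARS1.2 were used for names and order only, and there the 2 protein-coding genes between OTUD1 and PRTFDC1 are KIAA1217 and ARHGAP21. KIAA1217 is known in the mouse as sickle tail, a gene of the vertebral column. The tables used here give no position for either of them, so whether the stretch overlaps or adjoins one was not tested. All 61 transcripts of the stretch were of class u, which places them outside the gene annotation that the authors used.

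The 5 antisense transcripts, those of class x, were all uncalled. Among all 3171 transcripts of class x only 2 were called, so nothing is read from the 0 of 5. TCONS_00092690 had the locus of ARMC3, TCONS_00085234 that of C13H10orf67, TCONS_00085414 that of PRTFDC1, and TCONS_00092822 and TCONS_00092823 that of GPR158. The locus of the last 2, 297503 bp wide from 24694527 to 24992029, and the 114510 bp locus of PRTFDC1 were the widest of the interval. TCONS_00092798, of class u, was listed at the same locus as TCONS_00085414. The table gives the span of these loci, and the extent of each lncRNA within them was not examined.

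Outside the stretch the interval had 3 calls, all to its left. TCONS_00085153 at 22151867 to 22155558 was 2.73-fold lower in T, the smallest change of the 17 lower calls (log2 change -1.45, p = 0.0297, q = 0.756 in the authors' deposited table). TCONS_00085224 at 22910596 to 22912541 was 6.48-fold lower, the largest change of the 17 (log2 change -2.70, p = 0.0398, q = 0.866 in the authors' deposited table). TCONS_00085241 at 23158868 to 23159197, with a locus of 330 bp the narrowest of the 18 calls, was the 1 listed higher. It was listed at 0 in C, so its change has no finite value (p = 0.0165, q = 0.579 in the authors' deposited table).

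The calls paired with a gene lay outside the stretch. A predicted target was given for 2 of the 18 calls (11.1%), against 255 of all 668 (38.2%), and for 0 of the 15 calls of the stretch. TCONS_00085224 was paired with PTF1A, which starts 48266 bp after it. The PTF1A transcript was listed as higher in T but with p = 1 in the authors' deposited table, so no change of PTF1A in either direction is shown. The 6 GO terms of that pair had p of 0.0912 to 0.828 in the authors' deposited table, none under 0.05, and those of smallest p were exocrine and endocrine pancreas development. TCONS_00085241 was paired with OTUD1, which ends 22618 bp before it, and no direction for OTUD1 was used here. Both pairs were in the distance class of 100 kb. The placed genes nearest to the stretch are over 100 kb from it.

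**Figure D4:**
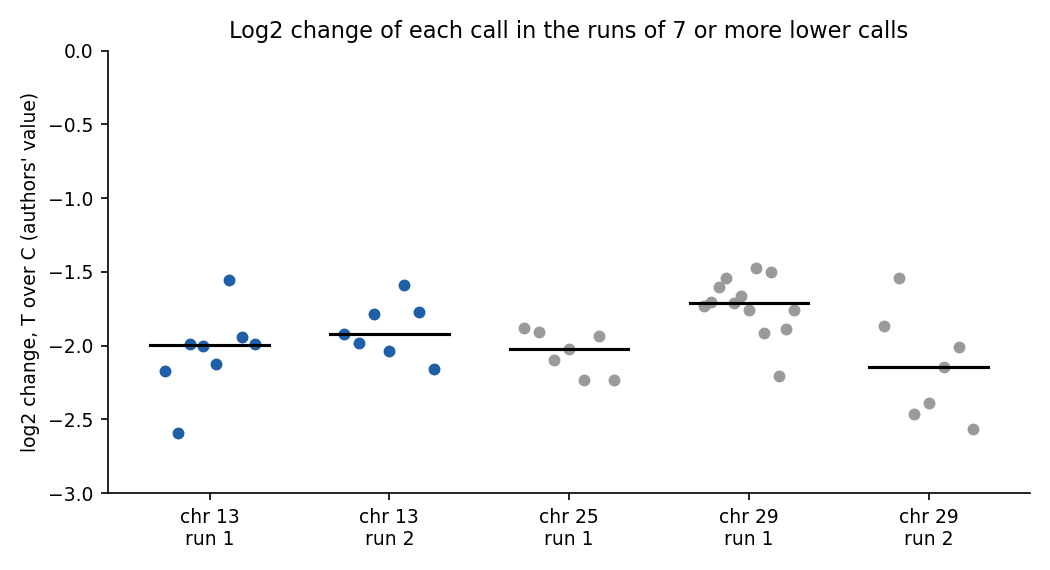
The authors' log2 change (T over C) of each call in the 5 runs with 7 or more lower calls, in order of position, with the median as a bar. The 2 runs of the stretch on chromosome 13 (blue) have medians of -2.00 and -1.92, inside the range of the medians of the other 3 runs, -2.14 to -1.71.

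The whole table held 3 other runs with 7 or more lower calls, and both runs of the stretch had medians inside their range. The run of 13 lower calls on chromosome 29 had a median log2 change of -1.71 and an SD of 0.20 among calls in the authors' deposited table. The run of 7 at 10259844 to 10446226 on the same chromosome had -2.14 and 0.36, and the run of 7 on chromosome 25 (30703049 to 30940903) had -2.02 and 0.15. The first run on chromosome 13 had -2.00 and 0.29, and the second -1.92 and 0.19. In each of these 5 runs all calls belonged to a single number series, and the median locus span was 4208 to 6006 bp. The smallest q of each was 0.365 to 0.513 in the authors' deposited table. All these runs come from the same comparison of the same libraries, and no difference between runs was tested.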

How the data were processed

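Endometrium RNA of 2 pre-receptive and 2 receptive libraries had been assembled and compared by the authors; the submitters' processing notes name TopHat, TopHat2, Cufflinks and Cuffdiff without versions or roles. The log2 fold change, p-value and q-value of set T over set C were used as the authors deposited them, and so were the CPC and CNCI score of each transcript, per the file headers. P-values of target transcripts and GO terms were also deposited by the authors. Columns named for single libraries (4) and for set means (2) carry the letters T and C but matched no sample label, and none of these 6 was used, so the planned limma fit was not run. Depth per library is unknown here.

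Transcripts were taken by position. A call is an entry of the authors' list of differential lncRNAs. Calls up to 100 kb apart were joined into runs, and the stretch spans the runs of at least 6 calls in the interval. A number series begins where, in order of transcript number, the position falls by over 1 Mb. The run and series steps were tested on simulated positions. The named transcripts are those called, those of class x, the widest loci and the uncalled transcript nearest each border. Partners at shared loci, the wide locus between the runs and the nearest calls outside the interval were chosen after their values were seen. The interval and the lists were chosen with earlier results of these data known. RefSeq's ARS1.2 gene table gave names and gene order. The authors' genome build is not stated in their files. Python 3.11.15, numpy 2.4.6, pandas 2.3.3 and matplotlib 3.10.9 were used.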

Additional observations from a re-analysis of the deposited data

How the results depend on the processing

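The 17 lower calls remained 17 when only calls with both sets above 0 or only class u were counted, and fell to 2 when calls with a q of at most 0.5 were kept. The 2 are TCONS_00085286 and TCONS_00085304. With gaps of at most 200 kb the longest run held 15 calls in place of 8, since the 2 runs of the stretch joined. With gaps of at most 50 kb the first run broke into runs of 4 calls each (23369745 to 23393565 and 23467814 to 23573292). The longest was then the second run, with 7 calls. By the rule of at least 6 calls the stretch would then be that run alone, 81.1 kb in place of 389.9 kb. The highest share of lower calls in a bin was 25% with 100-kb bins, 42.9% with 50-kb bins and 20.6% with 200-kb bins. All other alternatives stayed within 1.5 times the value reported or within 1 SD of it: transcripts touching the interval (253), the infinite ratio ranked at its end (median log2 change -1.98) and chromosome 13 as the comparison set for span (1.31-fold wider, against 1.33-fold). No paired analysis was possible because the columns of single libraries match no sample label and were not used. Leaving out a library, another pseudocount and another filter, which need those columns, were not run. Which day T stands for, and the depth of each library, are unknown here, the spread between libraries was not computed, and no call of the interval passed a q of 0.05.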
